A study of Mus musculus with 12 samples.

Results

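The oligoadenylate synthetase (OAS) family was followed in RNA from mouse bone marrow-derived macrophages (BMDMs). Its members were chosen by name, as the synthetase and synthetase-like genes Oas1a, Oas1b, Oas1c, Oas1g, Oas2, Oas3, Oasl1 and Oasl2, which are 8 of the 38739 gene symbols in the table. All 8 passed the filter on low values, as did 11887 symbols in all. The series held 4 groups of 3 samples. They were wild-type (WT) BMDMs left untreated (UT) or given LPS, a bacterial cell wall component that activates macrophages through TLR4, and cGAS-/- BMDMs, from mice that lack the cytosolic DNA sensor cGAS in every cell, left UT or given LPS. By the methods, the mice were males of the C57BL/6J background, 8 weeks old, and the WT mice were bought while the cGAS-/- mice came from another laboratory, so that the source of the mice and the genotype cannot be told apart. The sample labels give LPS at 100 ng/mL for 1 h against a media control, whereas the methods of the study give a higher dose and a day of exposure, and the labels' extraction step names neutrophils. The time after LPS is therefore not settled for the values below. The samples of a group are described elsewhere in the study as technical replicates, so p-values measure the spread between these samples, which need not be the spread between mice.

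OAS proteins sense double-stranded RNA. When they bind it, the active enzymes join ATP into short chains with 2′-5′ bonds, and these chains act as a messenger in antiviral defence. The genes are classical targets of type I interferon, which acts through the transcription factor complex ISGF3 on interferon-stimulated response elements (ISREs) in their promoters. In the mouse, a single human OAS1 gene corresponds to a cluster of Oas1 copies. Oas1a and Oas1g encode active enzymes, and Oas1b is known for resistance to flaviviruses. Oasl1 encodes a protein without synthetase activity that is known to restrain translation of the Irf7 messenger RNA, while Oasl2 encodes an active enzyme. OAS and cGAS proteins share a nucleotidyltransferase fold, with RNA as the activator of the former and DNA of the latter.

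All 8 genes lie on chromosome 5. By the GENCODE annotation of GRCm39, Oas2, Oas3, Oas1c, Oas1b, Oas1g and Oas1a lie in that order within 178 kb, chr5:120868398-121046449. Oasl2 and Oasl1 lie side by side within 41 kb at chr5:115034997-115075974, 5.79 Mb from the larger cluster. Oas1b, on the plus strand at chr5:120950700-120962228, and Oas1c, on the minus strand at chr5:120938259-120950579, point away from each other, and their start sites are 124 bp apart.

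The promoters of the members, taken as 250 bases before to 50 after the start of the main transcript, were searched on both strands for the ISRE core (GAAA, any 2 bases, GAAA), which 3.84% of 21757 promoters of protein-coding genes hold. The core was present in the promoters of Oas1a, Oas1b, Oas1c, Oas1g, Oas2 and Oas3 and in neither of those of Oasl1 and Oasl2. In the 4 Oas1 members 2 copies overlapped into a run of 16 bases with GAAA 3 times, which 0.188% of the promoters hold. The same search for an NF-kB core (GGGA, any 4 bases, CC) found it in 5 members, Oas1b, Oas1c, Oas1g, Oas2 and Oasl1, where 21.7% of the promoters hold it, and a GAS element (TTC, any 3 bases, GAA) was found for Oas1a, where 8.82% do. The ISRE sequences are shown because ISGF3 is the best known regulator of the family. They are from the GRCm39 genome, 5′ to 3′ on the strand of each gene, with the match in capitals.

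Oas1a, chr5:121045586-121045615, minus strand, match from base 3 to base 18 of the transcript: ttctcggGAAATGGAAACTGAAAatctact
Oas1g, chr5:121025672-121025701, minus strand, match from 49 to 34 bases before the start: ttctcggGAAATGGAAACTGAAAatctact
Oas1b, chr5:120950671-120950700, plus strand, match from 25 to 10 bases before the start: ttcccggGAAATGGAAACTGAAAgtcccat
Oas1c, the same bases as Oas1b read on the minus strand, match from 114 to 99 bases before the start: atgggacTTTCAGTTTCCATTTCccgggaa
Oas2, chr5:120887973-120887996, minus strand, match from 56 to 47 bases before the start: acttgagTTTCGATTTCctaggtt
Oas3, chr5:120915783-120915806, minus strand, match from 70 to 61 bases before the start: gggaggaGAAAACGAAAgtgaagg

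The windows of Oas1a and Oas1g are the same in all 30 bases. Oas1b and Oas1c share a single copy, which lies in the 120 bases between the annotated genes, nearer to the start of Oas1b. The transcripts are alike as well. Of the distinct 31-base words in the Oas1g transcripts, 60% also occur in those of Oas1a, and 61.6% occur in some other gene. The share with any other gene was 24.4% for Oas1a, 25.2% for Oas1c and 8.39% for Oas1b, against 1.3% to 3.34% for Oas2, Oas3, Oasl1 and Oasl2. The split of reads between Oas1a and Oas1g is uncertain for that reason. Oas1a also lies over its whole annotated length, 15380 bp, within the span of Oas1d on the other strand. Oas1d was listed at no more than 0.133 TPM in any sample.

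The deposited values were taken as TPM, a relative abundance per transcript length, averaged over the transcripts of each symbol. WT LPS replicate 3 stood apart from the other 11 samples. Its column summed to 709802, where theirs ran from 447189 to 503156, and protein-coding genes held 18.5% of it, against 39.7% to 54.4%. The targeted gene Cgas ranged from 1.19 to 3.25 TPM with the WT genotype and from 0.0703 to 0.291 TPM without cGAS. Of 10 macrophage markers, 8 were listed, and they summed to between 22660 and 28449 TPM in the WT and cGAS-/- UT samples and in WT LPS, and to between 35609 and 35972 TPM in cGAS-/- LPS. The defining markers Adgre1 and Csf1r were not analysed here. In RNA from a culture, fewer cells of a type and less RNA per cell cannot be told apart.

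WT LPS replicate 3 went with the family in a particular way. Among the 3 WT LPS samples it held the lowest value of 7 members and the highest value of Oas3. Replicate 2 held the highest value of the same 7. Oas1b was at 0.858 TPM and Oas1c at 0.485 TPM in replicate 3, below every WT UT sample. The 8 members were also summed with each sample's protein-coding TPM rescaled to 1e+06. WT LPS replicates 1, 2 and 3 then stood at 2683, 3839 and 3268, so the sum of replicate 3 fell between the others. Oas3 made up 35.2% of the summed members in replicate 3, against 6.66% and 10.7% in replicates 1 and 2. The place of the sum therefore need not hold for each of the other members. Values without it are given beside results below.

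**Figure D1:**
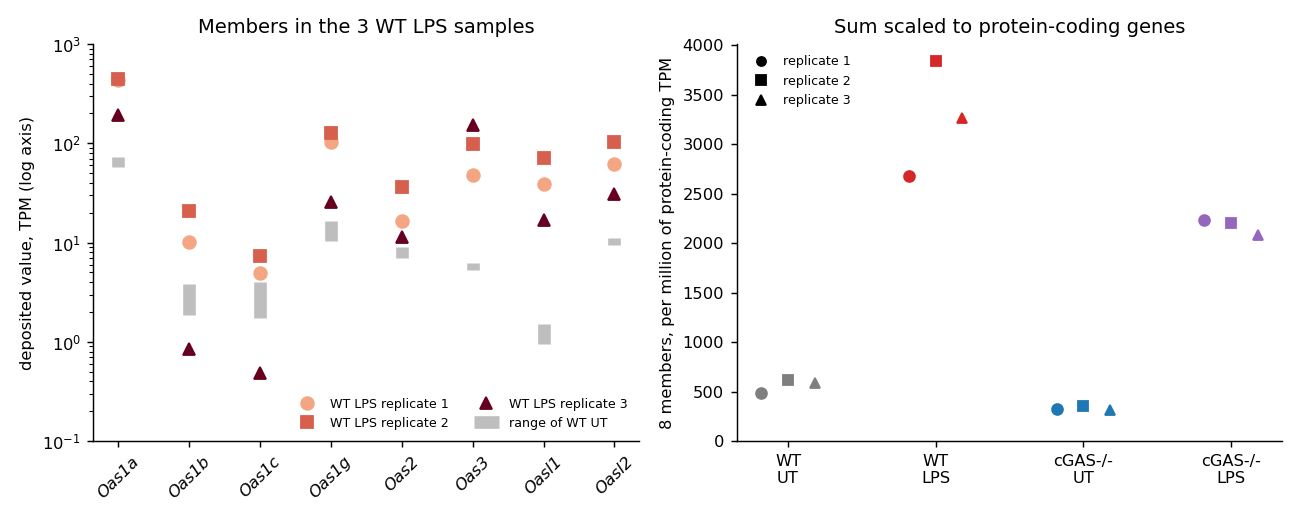
Left, deposited TPM (log axis) of the 8 members in the 3 WT LPS samples, with grey bars for the range of the 3 WT UT samples. Right, the sum of the 8 members, with protein-coding TPM rescaled to 1e+06, in each of the 12 samples. Replicate 3 is lowest of the WT LPS samples for 7 members and highest for Oas3. On the right its sum, of which Oas3 makes up 35.2%, lies between those of the other WT LPS samples.

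In UT WT cells, Oas1a stood highest, at 57.1, 72.5 and 68.3 TPM in replicates 1 to 3 and a mean of 65.9 ± 7.96 (SD, n = 3). It made up 59.0% to 59.8% of the summed deposited values of the family. The share fell to between 26.9% and 28.2% when each member was multiplied by the whole number given below for averaging over transcripts. Each of those numbers is a lower limit, so the lower share is not settled. Oas1g followed at 14.2 ± 3.34 TPM and Oasl2 at 10.3 ± 0.779 TPM, whose samples overlapped. Oas2 at 8.28 ± 1.09 TPM and Oas3 at 5.72 ± 0.512 TPM came next, each below its neighbour in every sample. Oas1b (2.89 ± 0.979 TPM) and Oas1c (2.58 ± 1.22 TPM) overlapped, and Oasl1 was lowest at 1.24 ± 0.282 TPM.

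In UT cGAS-/- cells Oas1a again stood alone at the top, with 39.7 ± 3.50 TPM. Below it, Oas3 (5.75 ± 0.903 TPM), Oasl2 (4.81 ± 0.877), Oas1g (4.72 ± 1.19) and Oas2 (4.0 ± 0.355) formed a run in which each overlapped its neighbour. Oas1c and Oas1b overlapped each other and lay below Oas2 in every sample. Oasl1 was again lowest, at 0.403 ± 0.112 TPM. Oas3, the fifth in WT UT cells, was the second here.

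After LPS, Oasl1 left the bottom of the order. In the cGAS-/- LPS samples the order was Oas1a, Oas1g, Oasl2, Oas3, Oas2, Oasl1, Oas1b and Oas1c, with an overlap between neighbours only for Oas2 and Oasl1. In the WT LPS samples Oas1a lay above all others and every other pair of neighbours overlapped. The order holds for the deposited values. They are averages over transcripts, and the smallest whole number that turned a member's values into short decimals was 1 for Oas1a and Oas2, 2 for Oas3, 3 for Oas1b, Oas1c, Oas1g and Oasl1, and 9 for Oasl2. Division by 2 or 5 adds few digits (8.58 against 8.25 on average for Oas3), so such factors can go unseen. All the numbers are lower limits for that reason, the 1 of Oas1a and Oas2 included. Multiplied by these lower limits, Oasl2 passed Oas1a and had the highest mean in all 4 groups. A larger number for Oas1a could change that, so which of them is higher on this scale is not settled. The ratio of a gene's means between groups does not depend on this number, but a fold change on the log2(TPM + 1) scale does for low members.

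The first question was how LPS changed the family in each genotype. In both WT and cGAS-/- BMDMs, 6 of 8 members rose at an adjusted p under 0.05: Oas1a, Oas1g, Oas2, Oas3, Oasl1 and Oasl2. Of all genes tested, 27.6% were called in WT cells and 13.8% in cGAS-/- cells, and those called higher made up 4.31% and 4.76%. With a log2 fold change beyond 2 asked for as well, 5 members were called in each genotype, all of the 6 but Oas2, as were 4.32% and 3.5% of all genes. Fold changes here are from limma on the log2(TPM + 1) scale, which understates the change of low genes, and p-values are adjusted over all 11887 genes. The median over the 8 members was 2.29 in WT and 2.74 in cGAS-/- cells, while the median over all genes was -0.46 and -0.20. The comparisons share no samples, and the difference between them was tested on its own below. Fitted on the 6 samples of each genotype alone, 4 members were called in WT and 8 in cGAS-/- cells, as were 6.02% and 44.6% of all genes. The summed B cell markers were lower with LPS, from between 108 and 134 TPM to between 30.6 and 44.9 TPM in WT and from between 19.9 and 28.5 TPM to between 3.04 and 8.84 TPM in cGAS-/- cells, and their part in the rise was not tested.

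**Figure D2:**
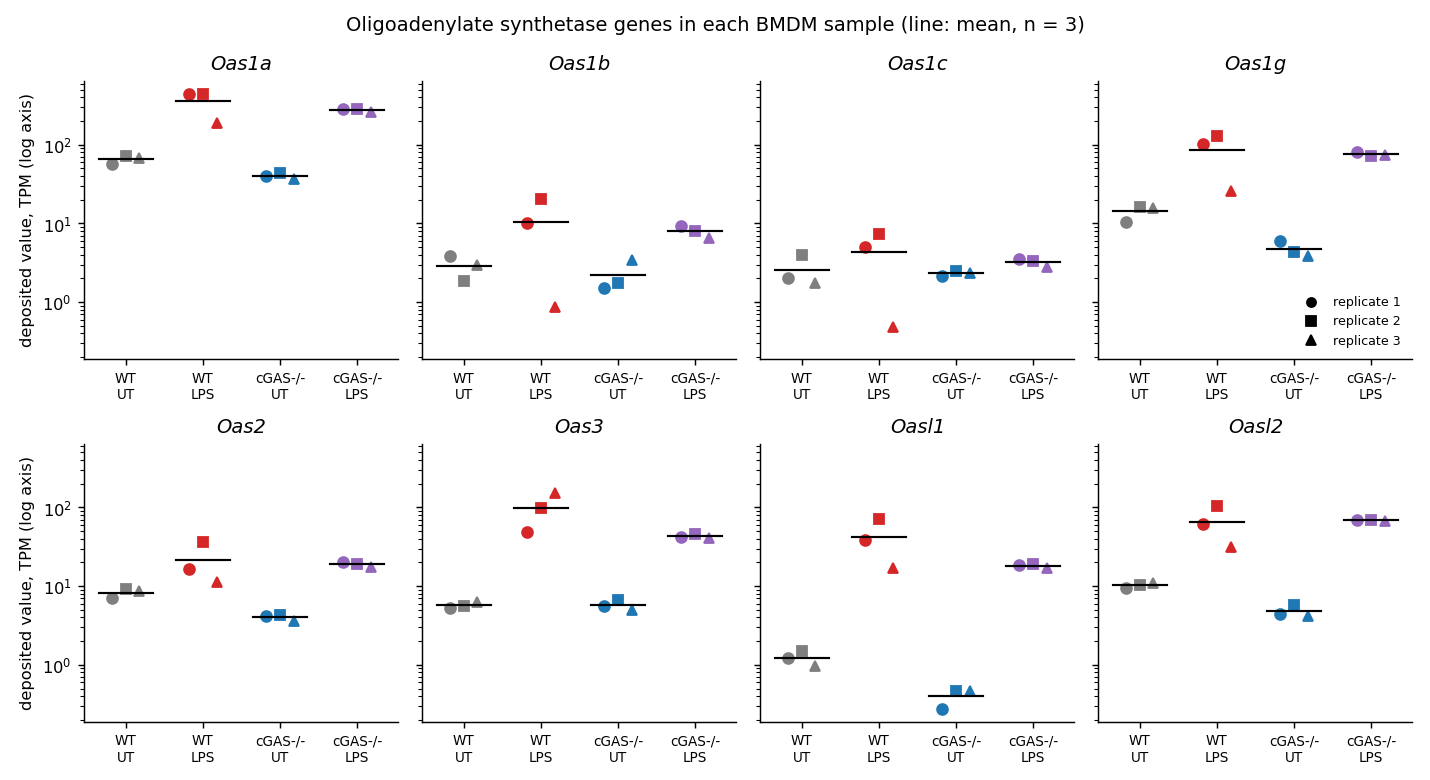
Deposited TPM (log axis) of each member in each of the 12 samples, by group, with the replicate number as the symbol and the mean of 3 samples as a line. Oasl1 goes from the lowest level of the family in UT cells, 0.274 to 1.52 TPM, to between 16.8 and 70.8 TPM after LPS, and the WT LPS samples are spread more widely than those of any other group.

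Oasl1, the member without synthetase activity, had the largest ratio of means between LPS and UT in both genotypes. It was at 1.23, 1.52 and 0.958 TPM in the WT UT samples and at 38.9, 70.8 and 17.1 TPM in the WT LPS samples. In cGAS-/- cells it was at 0.274, 0.468 and 0.468 TPM without LPS and at 18.6, 19.2 and 16.8 TPM with it. The groups did not overlap in either genotype. The means differed 34.2-fold in WT and 45.1-fold in cGAS-/- cells, and the log2 fold changes were 4.07 (SE 0.393, adjusted p = 4.03e-05) and 3.77 (SE 0.393, adjusted p = 7.82e-05). The WT value was 4.59 without WT LPS replicate 3. On the log2 scale its place rests on the pseudocount: at 5 in place of 1, its values were 2.75 and 2.10, below Oas3 (3.14) in WT cells and the fifth in cGAS-/- cells, below Oas1g (3.06), Oasl2 (2.91), Oas1a and Oas3 (2.17).

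Oas3, the largest of the synthetases, was at 5.29, 5.58 and 6.29 TPM in the WT UT samples and at 48.2, 97.4 and 151 TPM in the WT LPS samples. In cGAS-/- cells it went from 5.56, 6.74 and 4.97 TPM to 42.3, 46.5 and 41.4 TPM. The rise was 3.75 (SE 0.349, adjusted p = 3.18e-05) in WT and 2.72 (SE 0.349, adjusted p = 0.000319) in cGAS-/- cells. The WT value was lower without WT LPS replicate 3, at 3.37. Oas3 rose relative to Oas2, its neighbour in the cluster: the ratio of Oas3 to Oas2 was 0.616 to 0.751 in the WT UT samples, 1.33 to 1.59 in the cGAS-/- UT samples and 2.09 to 2.43 in the cGAS-/- LPS samples. In the WT LPS samples it was 2.91, 2.71 and 13.3.

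Oasl2, the active synthetase-like enzyme, was at 9.45, 10.3 and 11.01 TPM in WT UT and at 62.2, 103 and 31.2 TPM in WT LPS. In the cGAS-/- samples it was at 4.45, 5.81 and 4.18 TPM without LPS and at 69.2, 69.3 and 66.9 TPM with LPS. The log2 fold change was 2.41 (SE 0.358, adjusted p = 0.000765) in WT, or 2.85 without WT LPS replicate 3, and 3.59 (SE 0.358, adjusted p = 5.92e-05) in cGAS-/- cells. No sample with LPS lay as low as a UT sample of its genotype.

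Oas1a rose from the UT values above to 438, 446 and 191 TPM in the WT LPS samples. In cGAS-/- cells it went from 39.5, 43.3 and 36.3 TPM to 282, 281 and 262 TPM. These were rises of 2.33 (SE 0.314, adjusted p = 0.000386), or 2.73 without WT LPS replicate 3, and 2.76 (SE 0.314, adjusted p = 0.00014). Oas1g, whose reads are hard to tell from those of Oas1a, was at 10.4, 16.4 and 15.8 TPM in WT UT and at 104, 127 and 25.8 TPM in WT LPS. It was at 6.06, 4.28 and 3.81 TPM in cGAS-/- UT and at 80.7, 71.6 and 74.3 TPM in cGAS-/- LPS. The log2 fold changes of Oas1g were 2.25 (SE 0.491, adjusted p = 0.00716) and 3.76 (SE 0.491, adjusted p = 0.000364), and the WT value was 2.96 without WT LPS replicate 3. The WT call was lost when only the 6 WT samples were fitted (adjusted p = 0.0902).

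Oas2, an active synthetase that carries a lipid anchor, showed the smallest rise of the members called in both genotypes. It was at 7.04, 9.07 and 8.74 TPM in WT UT and at 16.6, 35.9 and 11.4 TPM in WT LPS, and at 4.16, 4.24 and 3.59 TPM in cGAS-/- UT and 20.2, 19.1 and 17.5 TPM in cGAS-/- LPS. The groups did not overlap, and the log2 fold change was 1.11 (SE 0.339, adjusted p = 0.0326) in WT and 2.0 (SE 0.339, adjusted p = 0.00225) in cGAS-/- cells. The WT value of Oas2 was 0.67 without WT LPS replicate 2. The WT call was lost in 11 of 25 alternative fits, with an adjusted p of 0.203 from the 6 WT samples alone.

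Oas1b and Oas1c, which share the interval described above, were the members not called in either genotype. Oas1b was at 3.83, 1.88 and 2.96 TPM in WT UT, at 10.0, 20.6 and 0.858 TPM in WT LPS, at 1.51, 1.77 and 3.40 TPM in cGAS-/- UT and at 9.34, 7.98 and 6.58 TPM in cGAS-/- LPS. Its log2 fold change with LPS was 1.00 (SE 0.689, adjusted p = 0.284) in WT and 1.51 (SE 0.689, adjusted p = 0.203) in cGAS-/- cells. The cGAS-/- groups did not overlap, and the 6 cGAS-/- samples fitted alone gave an adjusted p of 0.00415.

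Oas1c moved least. It was at 2.01, 3.98 and 1.76 TPM in WT UT, at 4.99, 7.36 and 0.485 TPM in WT LPS, at 2.15, 2.48 and 2.32 TPM in cGAS-/- UT and at 3.56, 3.36 and 2.81 TPM in cGAS-/- LPS. The fold changes were 0.28 (SE 0.512, adjusted p = 0.689) and 0.35 (SE 0.512, adjusted p = 0.751). The cGAS-/- groups did not overlap here either, and the adjusted p was 0.03 from those 6 samples alone. Without WT LPS replicate 3, both genes rose in WT cells, Oas1b by 2.02 (adjusted p = 0.00155) and Oas1c by 1.03 (adjusted p = 0.00995), and all 8 members were then called, where 34.7% of all genes were. Without WT LPS replicate 2, the WT values were 0.25 for Oas1b and -0.21 for Oas1c. Over all genes, every LPS sample lay above every UT sample for 5.31% in WT cells and 15.5% in cGAS-/- cells, against 6 and 8 of the 8 members.

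**Figure D3:**
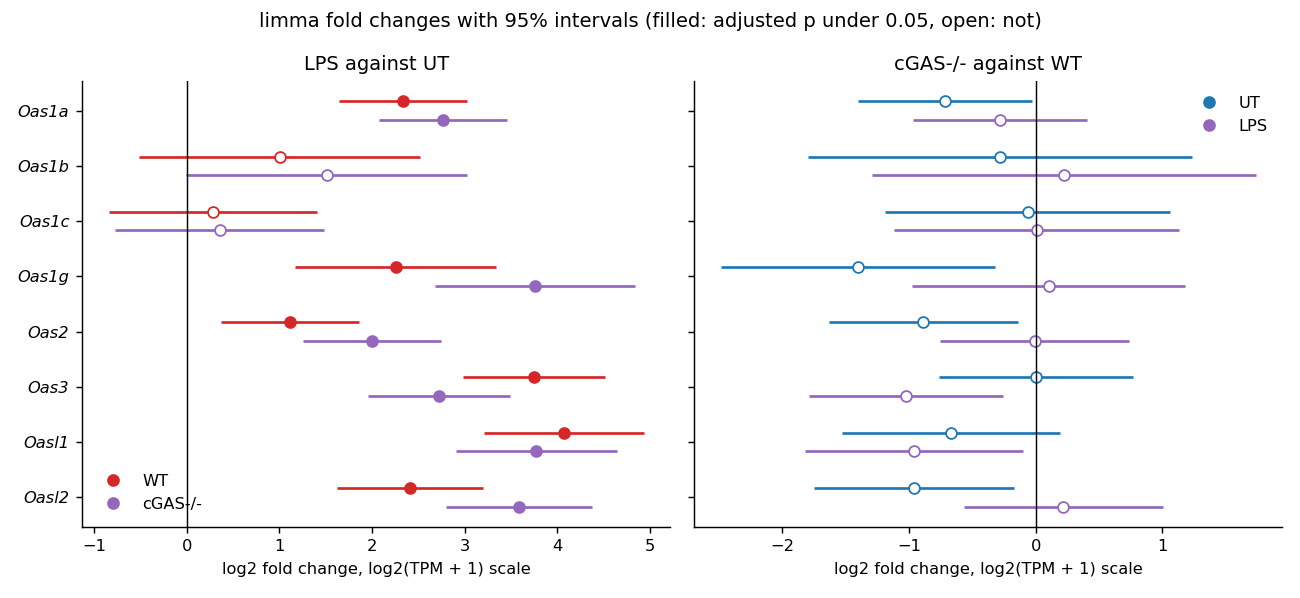
log2 fold changes of the 8 members with 95% intervals from the limma fit over 12 samples, for LPS against UT in each genotype (left) and cGAS-/- against WT in each treatment (right). Filled points have an adjusted p under 0.05. With LPS, 6 members are filled in both genotypes, and none is filled for the genotype, where the values run from -1.41 for Oas1g in UT cells to 0.22 for Oas1b and Oasl2 with LPS.

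The next question was whether cells without cGAS held less synthetase RNA before any stimulus. In UT cells, Oas1a, Oas1g, Oas2, Oasl1 and Oasl2 were lower in all 3 cGAS-/- samples than in any WT sample. The means were 0.602 times the WT mean for Oas1a, 0.332 for Oas1g, 0.483 for Oas2, 0.326 for Oasl1 and 0.469 for Oasl2. By contrast, Oas3 was level with WT (1.01 times) and its samples overlapped, as did those of Oas1b (0.770 times) and Oas1c (0.898 times). Over all genes, 18.4% had every cGAS-/- UT sample below every WT UT sample.

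The fit over all 12 samples called none of the 8 members in this comparison, where 1.83% of all genes were called. The log2 fold changes were -1.41 (SE 0.491, adjusted p = 0.325) for Oas1g, -0.96 (SE 0.358, adjusted p = 0.386) for Oasl2, -0.89 (SE 0.339, adjusted p = 0.414) for Oas2, -0.71 (SE 0.314, adjusted p = 0.575) for Oas1a and -0.67 (SE 0.393, adjusted p = 0.913) for Oasl1. Unadjusted p-values were under 0.05 for 4 of the 5, from 0.0155 to 0.0436, and 0.117 for Oasl1. The median over the family was -0.69 and over all genes -0.04.

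This fit takes its spread from all groups, the WT LPS samples included. Fitted on the 6 UT samples alone, the same fold changes were called for all 5 genes, with adjusted p-values of 0.0149 for Oas1a, 0.0166 for Oas1g, 0.00849 for Oas2, 0.0332 for Oasl1 and 0.00885 for Oasl2. In that fit 10.4% of all genes were called and 7.07% were called lower. With weights per sample, in which WT LPS replicate 3 counted 0.0352, the same 5 were called lower, as were 8.03% of all genes. Without WT LPS replicate 3, 3 members were called lower (Oas1a, Oas1g and Oasl2), as were 4.17% of all genes, and without replicate 2 Oas2 was, as were 2.35%.

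Markers of B cells moved the same way. The 6 B cell markers summed to between 108 and 134 TPM in WT UT and to between 19.9 and 28.5 TPM in cGAS-/- UT samples, and none of them was at 0 in all samples. The 7 neutrophil markers listed summed to between 139 and 213 TPM and to between 52.9 and 126 TPM. The 4 stromal markers summed to between 6.85 and 9.15 TPM and to between 2.004 and 3.71 TPM. T and NK cell markers summed to at most 0.616 TPM and dendritic cell markers to at most 2.23 TPM in any sample. The part of these cells in the lower synthetase values was not tested.

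**Figure D4:**
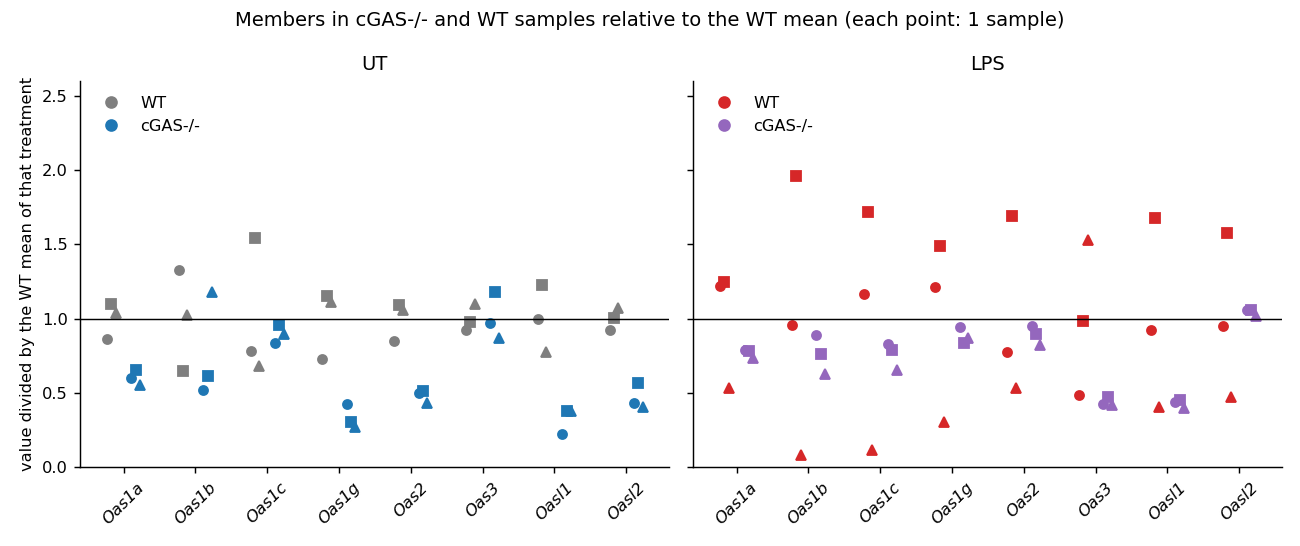
Each sample's value of each member divided by the mean of the 3 WT samples of the same treatment, for UT (left) and LPS (right). In UT cells the cGAS-/- points of Oas1a, Oas1g, Oas2, Oasl1 and Oasl2 all lie below the WT points, and with LPS only those of Oas3 do.

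With LPS, the 12-sample fit called none of 8 members between the genotypes, where 2.36% of all genes were called. The log2 fold change of cGAS-/- against WT was 0.22 (SE 0.358, adjusted p = 0.737) for Oasl2, 0.10 (SE 0.491, adjusted p = 0.924) for Oas1g, -0.01 (SE 0.339, adjusted p = 0.998) for Oas2 and -0.28 (SE 0.314, adjusted p = 0.619) for Oas1a. The 95% intervals, from -0.98 to 1.18 for Oas1g and from -0.57 to 1.01 for Oasl2, leave room for a difference of either sign. The direction for Oas1b, Oas1c, Oas1g, Oas2 and Oasl2 turned under other settings. Without WT LPS replicate 3, Oas1g stood at -0.60, Oas1b at -0.79, Oas1c at -0.74, Oas2 at -0.35 and Oasl2 at -0.23, and without WT LPS replicate 2 they stood at 0.53, 0.97, 0.50, 0.44 and 0.62.

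Oas3 and Oasl1 had the most negative values in this fit. Oas3, whose UT samples had overlapped between the genotypes, was at 42.3, 46.5 and 41.4 TPM in the cGAS-/- LPS samples, all below the 48.2, 97.4 and 151 TPM of the WT LPS samples. The log2 fold change was -1.03 (SE 0.349, adjusted p = 0.167), with an unadjusted p of 0.0134. Over all genes, 5.17% had every cGAS-/- LPS sample below every WT LPS sample. Oas3 was called only without WT LPS replicate 1, its lowest WT sample (-1.46, adjusted p = 0.0125, 2.97% of all genes called), among the 25 alternatives fitted. Oas3 stood at -0.65 without WT LPS replicate 3, its highest WT sample, and at -0.55 with sample weights. Oasl1 was -0.96 (SE 0.393, adjusted p = 0.229), with a mean 0.430 times that of WT against 0.326 times in UT cells, and its lowest WT LPS sample, 17.1 TPM, lay within the cGAS-/- range of 16.8 to 19.2 TPM. It was called with TMM factors (-1.2, adjusted p = 0.0192, 4.27% of all genes called), with quantile normalization (-1.12, adjusted p = 0.0387, 4.64%) and without WT LPS replicate 3 (-1.48, adjusted p = 0.00333). It stood at -0.49 without WT LPS replicate 2. The B cell markers summed to between 30.6 and 44.9 TPM in WT LPS and to between 3.04 and 8.84 TPM in cGAS-/- LPS samples, the neutrophil markers to between 35.5 and 353 TPM and to between 46.4 and 59.9 TPM, and the stromal markers to between 5.65 and 16.5 TPM and to between 2.59 and 3.68 TPM. The macrophage markers, given above, were higher in every cGAS-/- LPS sample than in any WT LPS sample. The part of these in the values was not tested. Oas1a was called without WT LPS replicate 3 too (-0.68, adjusted p = 0.00697), when 8.28% of all genes were.

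Whether the response to LPS differed between the genotypes was tested by the interaction, the LPS effect in cGAS-/- cells minus that in WT cells. None of 8 members was called, and 0.9% of all genes were, so a narrower or wider gap between the genotypes with LPS was not shown for any of them in this fit. The largest values were 1.51 (SE 0.695, adjusted p = 0.463) for Oas1g, 1.18 (SE 0.506, adjusted p = 0.425) for Oasl2 and -1.03 (SE 0.493, adjusted p = 0.483) for Oas3. Oasl2 was the single member with an unadjusted p under 0.05, at 0.0395. The values of Oas1g, Oasl2 and Oas3 were 0.80, 0.74 and -0.65 without WT LPS replicate 3. The median over the family was 0.47 and over all genes 0.27. Without WT LPS replicate 2, Oas2 (1.32, adjusted p = 0.017) and Oasl2 (1.58, adjusted p = 0.0264) were called, in a fit that called 12.6% of all genes.

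The members differed in how closely they followed each other. Over the 12 samples, the Pearson correlation of log2 values with the mean of the other 7 was 0.989 for Oas1a, 0.985 for Oasl2, 0.98 for Oasl1, 0.972 for Oas1g and 0.964 for Oas2. It was 0.833 for Oas3, 0.759 for Oas1b and 0.478 for Oas1c. Without WT LPS replicate 3 the last 3 stood at 0.9749, 0.929 and 0.774. These describe 12 samples in 4 groups, most of whose spread is the difference between UT and LPS, and they carry no test.

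The genes outside the family whose values ran most like its mean were Irgm1 (r = 0.997), Trim30c, Gbp7, Mlkl, Rsad2, Ifi213, Irf7, Xaf1, Zbp1 and Ube2l6 (r = 0.989 for the last). Among them, Rsad2 encodes viperin, an antiviral enzyme, Irf7 a transcription factor that drives interferon genes, Irgm1 and Gbp7 interferon-inducible GTPases, and Zbp1 a sensor of Z-form nucleic acid. Of the 10, 3 were also among the 10 most alike by rank correlation, or 5 with the genes tied at the tenth place counted, and 4 among those without WT LPS replicate 3. The 5 genes most like Oas1c included Atxn7l1, Max, Med8 and Gm48065, with r from 0.922 to 0.945. Without WT LPS replicate 3 their r ran from 0.872 to 0.908.

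**Figure D5:**
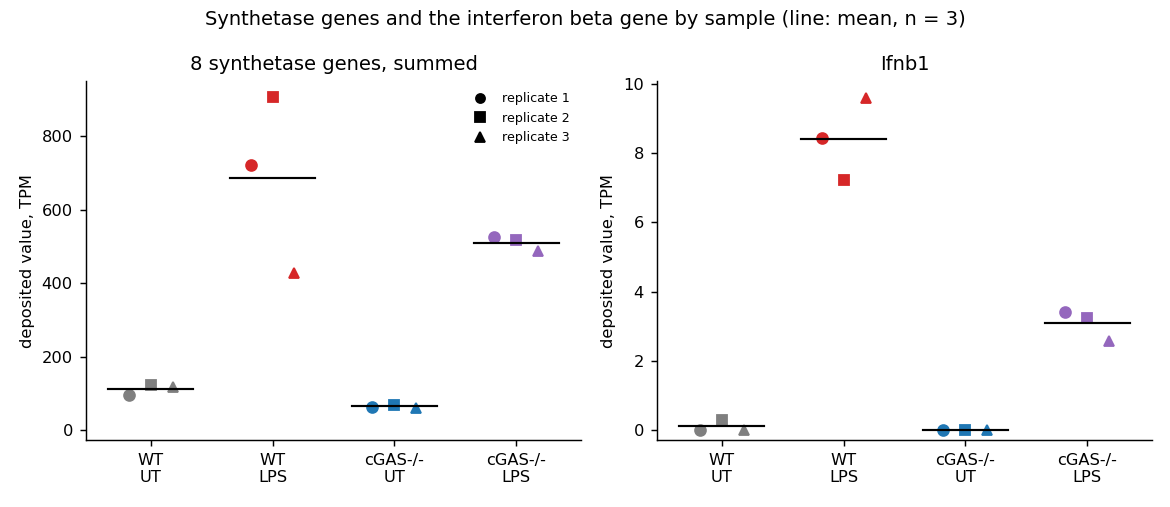
Deposited TPM of the 8 members summed and of Ifnb1 in each of the 12 samples, with the mean of 3 samples as a line. The summed synthetase values rise from between 59.0 and 121 TPM in UT cells to between 429 and 909 TPM with LPS, and Ifnb1 is at 7.21 to 9.60 TPM in WT LPS and 2.58 to 3.42 TPM in cGAS-/- LPS samples.

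Among other genes tied to the OAS pathway, Abce1, which encodes a ribosome recycling factor, was not called in any comparison, with means of 12.2 TPM in WT UT, 9.27 in WT LPS, 15.1 in cGAS-/- UT and 14.1 in cGAS-/- LPS. Akap7, whose product can degrade the 2′-5′ chains, had means of 2.33 and 1.58 TPM in WT and 2.69 and 1.32 TPM in cGAS-/- cells without and with LPS, and was not called. The other Oas1 copies were near the floor. Oas1e and Oas1f were listed at 0 in every sample, and Oas1h reached 1.59 TPM in a WT LPS sample.

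Among other sensors of double-stranded RNA, 8 genes were listed and tested, from 11 symbols that hold Ddx58 and Rigi as older and newer names of the same gene. With LPS, Ddx58, Dhx58 and Zbp1 rose in WT cells, and these together with Adar and Ifih1 rose in cGAS-/- cells. The calls of Adar (1.16, adjusted p = 0.0407) and Ifih1 held in 14 and 11 of 25 alternatives, and neither was called for the interaction (adjusted p = 0.767 and 0.665). Ddx58 (RIG-I) rose by 2.27 in WT (adjusted p = 0.000648) and 2.55 in cGAS-/- cells (adjusted p = 0.00034), and Dhx58 (LGP2) by 2.28 (adjusted p = 3.81e-05) and 2.56 (adjusted p = 1.83e-05). Ifih1 (MDA5) was 0.92 (adjusted p = 0.212) in WT and 1.83 (adjusted p = 0.0439) in cGAS-/- cells. Mavs, the adaptor of RIG-I and MDA5, Tlr3 and Trim25 were not called. In UT cells all 8 had a lower mean log2 value in cGAS-/- than in WT cells and none was called, where 1.83% of all genes were. Their median was -0.34, against -0.04 over all genes. The direction of Tlr3 (-0.11) turned in 1 of 24 alternatives.

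The controls of the family, type I interferon and ISGF3, were covered by 14 of 18 listed genes, 13 of them tested, and Irf9, Ifnar1 and Ifnar2 were not analysed here. With LPS, Ifnb1, Irf1, Irf7, Socs3, Stat2 and Usp18 were among those that rose in both genotypes, though the call of Irf1 in cGAS-/- cells (0.93, adjusted p = 0.0429) held in 11 of 25 alternatives. Irf8 fell by 0.85 in WT cells (adjusted p = 0.0447), a call that held in 9 of 25 alternatives, and stood at -0.82 in cGAS-/- cells (adjusted p = 0.0809). Ifnb1, the gene of interferon beta, was at 8.43, 7.21 and 9.60 TPM in WT LPS and at 3.42, 3.24 and 2.58 TPM in cGAS-/- LPS samples, and was listed at 0 in 5 of 6 UT samples. It was the gene of this list called between genotypes, lower in cGAS-/- LPS cells with a log2 fold change of -1.2 (SE 0.178, adjusted p = 0.00597), in 22 of 25 alternatives.

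Usp18, which restrains interferon receptor signalling, showed the same order without passing the threshold, with means of 102 TPM in WT LPS and 49.9 TPM in cGAS-/- LPS (-0.99, adjusted p = 0.0849). Irf7 (-1.12, adjusted p = 0.45) and Usp18 (-0.98, adjusted p = 0.107) were also below WT in every UT cGAS-/- sample, as were 18.4% of all genes. Irf5 went the other way, at 46.2 to 54.0 TPM in cGAS-/- UT against 37.0 to 37.9 TPM in WT UT. Of the 13 genes tested in this list, 2 had a higher mean log2 value in cGAS-/- UT cells, and none was called. Stat2, a subunit of ISGF3, rose by 2.17 (adjusted p = 0.000326) in WT and 2.39 (adjusted p = 0.000187) in cGAS-/- cells with LPS. Its WT LPS samples stood at 21.7, 48.8 and 24.2 TPM, highest in replicate 2.

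In the cGAS and STING list, 6 genes were tested, from 8 symbols that hold Sting1 and Tmem173 as names of the same gene. Trex1, a nuclease that clears cytosolic DNA, rose by 2.61 (adjusted p = 1.05e-05) in WT and 2.41 (adjusted p = 1.83e-05) in cGAS-/- cells, and the kinase gene Ikbke by 1.17 (adjusted p = 0.00681) and 2.29 (adjusted p = 0.000115). Enpp1, whose product degrades the messenger made by cGAS, fell by 0.95 (adjusted p = 0.000838) and fell by 1.53 (adjusted p = 3.65e-05). Cgas itself was lower in cGAS-/- cells, with log2 fold changes of -1.69 without LPS (adjusted p = 0.00239) and -1.60 with LPS (adjusted p = 0.00508). Tbk1 and Samhd1 were not called in any comparison.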

How the data were processed

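RNA-seq values of 12 BMDM samples from WT and cGAS-/- mice, UT or with LPS and 3 per group, were analysed. Per the submitters' processing notes, the authors used fastp, STAR and kallisto on GRCm39. The deposited values were read as TPM, each a mean over a symbol's transcripts. This was inferred from the values, and the number of reads behind them is unknown. The table stops partway through chromosome 13 by gene position, so later genes were not analysed here. Genes with at least 1 TPM in 3 samples, after rescaling each sample to 1e+06 for this filter only, were kept. Values were taken as log2(TPM + 1). Group means over the 12 samples were fitted by limma 3.58.1 (R 4.3.3) with a variance trend, and the fit was tested on simulated data. Calls used a Benjamini-Hochberg adjusted p under 0.05. No count tool was run. Named were the 8 members, the genes of 4 pathway lists, the 10 genes most like the family, the 5 most like its least typical member and Cgas. Some genes that this rule names are not reported here. Members and lists were chosen with earlier results of these data known. Alternatives changed the pseudocount, filter, scaling, samples, weights, trend and genes tested. Matches and transcripts came from GENCODE M39. Figures were drawn with Python and matplotlib.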

Additional observations from a re-analysis of the deposited data

How the results depend on the processing

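The depth is unknown, and members near 1 TPM are least precise. Pairing by replicate number was not seen in deviations from the group means. They correlated from -0.031 to 0.038 for samples of the same number and from -0.064 to 0.051 for the others. With 3 samples per group this does not show that pairing was absent. The replicate block left the calls at 0, 0, 6, 6 and 0 members. Rescaling to a common protein-coding total was added after the data were seen. The cause of the following changes was not tested.

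For cGAS-/- against WT in UT cells, 5 members were called lower from 6 samples and 5 with sample weights, and 0 to 3 when a sample was left out. With LPS, 1 was called with TMM factors, 1 with quantile normalization and 0 to 2 with a sample left out, and the interaction gave 0 to 2. Counts for LPS against UT stayed between 5 and 8 in WT and 6 and 7 in cGAS-/- cells with a sample left out, and were 4 and 8 from the 6 samples of each genotype. Of 32 places in the order of levels, 30 stayed with medians and 8 with the multipliers. Of the 10 genes most like the family, 3 stayed with Spearman correlation, 5 if ties at the tenth place count, and 4 without WT LPS replicate 3.

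Directions turned as follows, on the log2 scale. In UT cells Oas1c was 0.0106 with quantile normalization and -0.22 to 0.20 with a sample left out, and Oas3 was -0.0642 at a common total and -0.101 to 0.0869. For cGAS-/- against WT with LPS, Oas1b was -0.0213 at a pseudocount of 5, -0.0331 with quantile normalization, -0.42 with sample weights and -0.79 to 0.97 with a sample left out. Oas1c was -0.0923, -0.20 and -0.51 in these, -0.0773 with TMM factors, -0.0500 at a common protein-coding total and -0.74 to 0.50. Oas1g was -0.14 with TMM factors, -0.41 with sample weights, -0.10 at a common protein-coding total and -0.60 to 0.53. Oas2 was 0.000157 at a pseudocount of 0.1, 0.11 at a common total and -0.35 to 0.44, and Oasl2 was -0.0216 with TMM factors, -0.0115 with sample weights and -0.23 to 0.62. For LPS in WT cells Oas1c was -0.21 to 1.03 with a sample left out. In the interaction, Oas1b was -0.11 with sample weights and -0.51 to 1.26. Oas1c was -0.0526 at a pseudocount of 5, -0.0662 with TMM factors, -0.21 with quantile normalization, -0.40 with sample weights, -0.0216 at a common protein-coding total and -0.68 to 0.57. Oasl1 was 0.43 at a pseudocount of 0.1 and -0.81 to 0.18. TMM factors moved the median of all genes in WT cells with LPS from -0.46 to -0.11. With them the WT values of Oas1a, Oas2, Oas3 and Oasl2 were at their highest among the alternatives, 2.98, 1.71, 4.35 and 3.03.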
